A study of Mus musculus with 8 samples.

Results

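The circRNAs described here are those that the authors' annotation classed as intronic or as exon-intron in mouse bone marrow B cells. Of the 1005 circRNAs listed, 191 were intronic and 102 were exon-intron, 293 together, and the class assigned in the deposited table was the only rule used to choose them. They held 1435 of the 6371 back-spliced reads. The study followed circular, messenger and small RNAs through B-cell development in the bone marrow. Cells of 3 female C57BL/6 mice aged 8 to 10 weeks were pooled and sorted into pro-B (B220+IgM-CD43+), pre-B (B220+IgM-CD43-), immature B (B220+IgM+CD43-) and mature B (B220 high, IgM+CD43-) cells, without treatment. Each stage gave 1 rRNA-depleted RNA library. With 1 library per stage there are no replicates, so every test below compares 2 libraries and not 2 stages, and intervals cover counting error only.

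Most circRNAs arise by back-splicing, in which a downstream splice donor joins an upstream acceptor and closes a ring of exons. An exon-intron circRNA keeps an intron between its exons, and RNAs of this kind have been found in the nucleus, bound to U1 snRNP. Intronic circRNAs are best known as intron lariats that escape the debranching enzyme Dbr1. A lariat ring starts at the 5' splice site, so its ends differ from those of a back-spliced ring of exons.

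The only end of a member with reference sequence around it was the 5' end of novel_circ_000065, an intronic circRNA with 4 pro-B reads. It is shown to let the ends be read against the splice sites of exon rings. The stretch is chr7:132776988-132777017 of GRCm38.p6, minus strand, from RefSeq. The ring begins after base 15, and the capitals mark the last bases in front of it.
novel_circ_000065 5' end: ccaaggtcatggaAGgagcccttcctgagc
The bases in front of the ring read AG, as at the acceptor of a spliced exon. Over all classes 6 circRNA ends lay in RefSeq promoter windows, and all 6 had AG in front of the 5' end or GT behind the 3' end on the strand of the circRNA. The caller find_circ looks for such flanks, so they are a property of the calling and show that the coordinates and the build fit. Intronic members were called under the same rule and are classed by position. Whether any of them is a lariat was not tested. AG made up 7.69% and GT 4.98% of the positions in those windows. The end lay 86 bases upstream of an annotated start of Fam53b, although the deposited host label of this circRNA is Fgfr2. The exon-intron circRNA novel_circ_000089 of Sh2b3, a signalling adaptor, enclosed the miRNA gene Mir7031 between its ends and is shown as a ring whose genomic span covers another annotated RNA gene. Its RefSeq mature miRNAs lie at chr5:121819246-121819268 and chr5:121819209-121819229 on the minus strand, with the seed, bases 2 to 8, in capitals.
mmu-miR-7031-5p: cCUGAGAGgccugaaggguggga
mmu-miR-7031-3p: aACCCUCUugcccucuccuag
The ring had 2 reads, both in the immature B library. In all, 4 members enclosed a RefSeq miRNA or snRNA gene between their ends, among them those of Ccdc82 with 6 reads and of Fbxo7 with 4 reads, each with an snRNA gene. Only positions were compared, and whether the rings keep these stretches was not tested.

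The libraries held 1370 back-spliced reads in pro-B, 1719 in pre-B, 1751 in immature B and 1531 in mature B cells, so a count of 0 leaves room for 3 reads, between 0.171% and 0.219% of a library. B-lineage markers were present in every library, with Cd79a at 249 to 680, Cd79b at 780 to 2707 and Pax5 at 844 to 1958 CPM, counts scaled to the mRNA total of the library. The 5 pro-B markers summed to 2081 CPM in pro-B cells and at most 142 elsewhere, and the 5 mature B markers to 4427 in mature B cells and at most 635 elsewhere. The 4 pre-B markers were not highest in their own library, with 1278 CPM in pro-B, 1066 in pre-B, 576 in immature B and 15.2 in mature B cells, and the 4 immature B markers ranged from 4337 in pro-B to 9504 in immature B cells. The 4 plasmacytoid dendritic cell markers summed to 592 CPM in pro-B cells and 91.8 to 286 elsewhere, the 4 erythroid markers to 59.1 to 246, the 6 T and NK cell markers to 205 CPM in pro-B cells and at most 5.89 elsewhere, and the 6 myeloid markers to 790 to 1049 in every library with Csf1r at 0. Their part in the results was not tested. The mRNA table held 867920 counts in pro-B and 849350 in mature B cells but 240231 in pre-B and 223495 in immature B cells, which was 23.7%, 23.5%, 6.48% and 6.48% of the mRNA and lncRNA counts. In such bulk samples fewer cells of a type and less RNA per cell cannot be told apart.

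Intronic circRNAs took a similar share of each library, and exon-intron circRNAs a lower share of the pre-B and immature B libraries. Intronic circRNAs held 194 reads in pro-B (14.2%, 95% exact binomial interval 12.4% to 16.1%), 220 in pre-B (12.8%, 11.3% to 14.5%), 269 in immature B (15.4%, 13.7% to 17.1%) and 217 in mature B (14.2%, 12.5% to 16.02%). The 4 intervals overlapped. Exon-intron circRNAs held 140 reads in pro-B (10.2%, 8.67% to 11.9%), 122 in pre-B (7.10%, 5.93% to 8.41%), 114 in immature B (6.51%, 5.40% to 7.77%) and 159 in mature B (10.4%, 8.90% to 12.02%). The intervals of pro-B and mature B cells lay above those of pre-B and immature B cells, with the nearest ends at 8.67% and 8.41%. They take each read as independent, and 90.2% of the nonzero exon-intron counts were even. If both mates of a pair were counted the intervals are too narrow, and whether they then stay apart was not tested. The pre-B and immature B libraries were those in which the mRNA share was low, and the part of that share was not tested. Counting rings instead of reads, exon-intron circRNAs made up 9.09%, 7.45%, 6.85% and 10.5% of the circRNAs found in the same order.

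**Figure D1:**
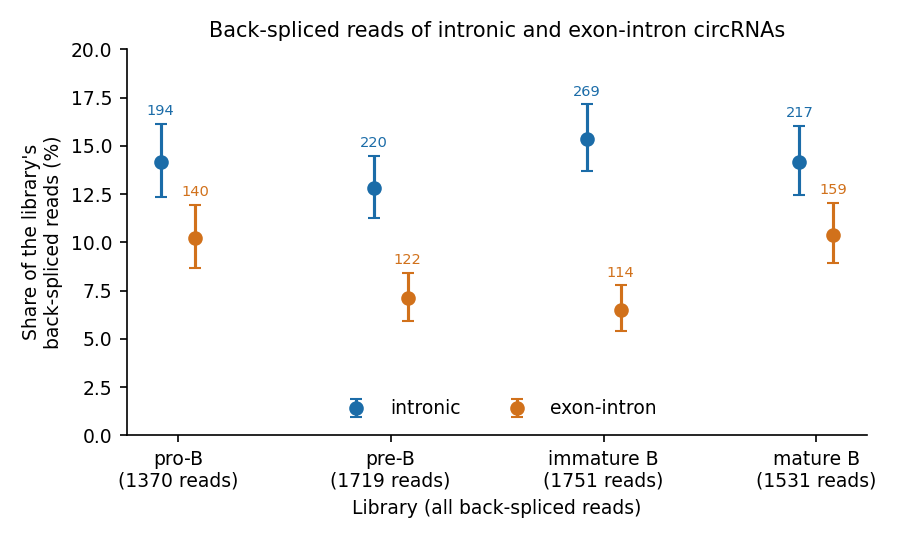
Share of each library's back-spliced reads (vertical axis, percent) that came from intronic (blue) and exon-intron (orange) circRNAs in the 4 libraries (horizontal axis). Points are shares, bars are 95% exact binomial intervals that take each read as independent, and the small numbers are reads. The exon-intron points of pro-B (10.2%) and mature B cells (10.4%) sit above those of pre-B (7.10%) and immature B cells (6.51%).

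Counts of single members were low and mostly even. A member had a median of 4 reads over all libraries, and no more than 19. Of the 323 nonzero counts of members, 288 (89.2%) were even numbers and 167 were exactly 4, while 4 were 1. For circRNAs of annotated exons 79.2% of nonzero counts were even, and for antisense ones 88.6%. Whether both mates of a read pair were counted is not given in the sources used here, and the intervals above take each read as independent.

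Reads of a member seldom recurred in another library. Of the 293 members, 272 (92.8%, Wilson interval 89.3% to 95.3%) had reads in 1 library, 14 in 2, 5 in 3 and 2 in all 4. Over all classes 804 of 1005 circRNAs (80.0%) had reads in 1 library, and 93.9% of the antisense ones. Of the members in 1 library, 157 (57.7%) had exactly 4 reads, against 458 of 804 (57.0%) over all classes. Among the 82 members with 6 or more reads the share in 1 library was 79.3%, against 51.6% of the 386 circRNAs of all classes with as many reads. It was 23.2% of the 151 circRNAs of annotated exons and 80.6% of the 93 antisense ones. circBase, a catalogue of known circRNAs, listed 1 member, the Zranb1 circRNA, and 26 of the 268 circRNAs of annotated exons.

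Exon-intron circRNAs were the longer class. The deposited length of intronic circRNAs had a median of 1118 bases (quartiles 564 and 2915, range 155 to 92103). That of exon-intron circRNAs was 3761 bases (1316 and 7960, range 208 to 56267), against 567 bases for circRNAs of annotated exons and 1534 for antisense ones. For circRNAs of annotated exons the deposited length never equalled the genomic span, so lengths are not measured alike across classes. On genomic span the medians were 1118 bases for intronic, 5802 for exon-intron and 5846 for annotated-exon circRNAs. The length equalled the whole genomic span for all 191 intronic circRNAs, as for all 330 antisense ones, and for 47 of the 102 exon-intron circRNAs. The counted reads cover the back-splice junction only, so whether sequence inside a ring was spliced out was not seen. Above 10000 bases lay 13 intronic and 21 exon-intron circRNAs (11.6% of members), 57 antisense ones (17.3% of that class) and none of annotated exons. The shortest intronic rings came from Zdhhc14 (155 bases), Pcnx (164) and Serpinc1 (168), and the shortest exon-intron rings from Coro7 (208), Stt3a (216) and Rprd2 (236), all with 4 reads but Stt3a with 8. The longest exon-intron ring came from Fry (56267 bases, 6 immature B reads), and that of Mbnl1 (31366, 4 mature B reads) was also among the longest. The longest rings classed as intronic were novel_circ_000428 (92103 bases, 4 pro-B reads), that of Insyn2b (43485, 4 mature B reads) and that of Lpp (21011, 8 pre-B reads). By position novel_circ_000428 ran from Fam53b into Eef1akmt2, so its class is as open to doubt as its host label, Fgfr2.

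**Figure D2:**
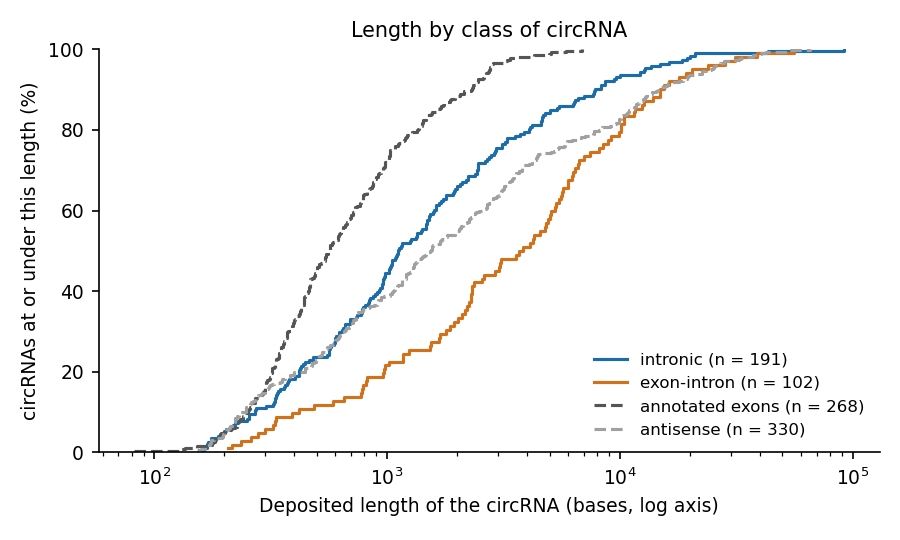
Cumulative share of circRNAs (vertical axis, percent) at or under a deposited length (horizontal axis, bases, log axis) for intronic, exon-intron, annotated-exon and antisense circRNAs. The exon-intron curve lies to the right of the others over most of its course, with a median of 3761 bases, and the annotated-exon curve to the left, with 567. The deposited length is the whole genomic span for intronic and antisense circRNAs but never for those of annotated exons.

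The host labels were checked against RefSeq genes on GRCm38.p6, the build the coordinates fit, although the submitters' processing notes name mm9. Of the 282 members whose host has a RefSeq record, 264 lay inside the host, 7 partly and 11 outside. The hosts were long genes, with a median RefSeq interval of 85619 bases (n = 208 members inside a host of known strand) against 22603 for mRNAs at an FPKM (fragments scaled to transcript length and library) of 1 or above in some library (n = 9648) and 76489 for hosts of annotated-exon circRNAs (n = 267). The centre of the ring lay at a median of 39.4% of the host's length from its 5' end for intronic and 60.2% for exon-intron circRNAs.

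The label Fgfr2, a fibroblast growth factor receptor, stood on more members than any other, and none of them lay in Fgfr2. It was given to 8 circRNAs classed as intronic, with 60 reads, 4 of them found in several libraries. They lay between 269773 and 2584683 bases beyond the RefSeq interval of Fgfr2, chr7:130162451-130266808, on the same strand. The mRNA table lists Fgfr2 at an FPKM of 0 in every library. By position 5 lay in or across Fam53b, 2 in Chst15, a sulfotransferase of glycosaminoglycans, and 1 in Nsmce4a, a subunit of the SMC5/6 complex of DNA repair. Their deposited class was not checked against the exons of these genes. Fam53b had FPKM values of 31.6 in pro-B, 8.21 in pre-B, 1.41 in immature B and 2.23 in mature B cells. Chst15 had 8.70, 3.32, 3.30 and 12.1, and Nsmce4a 10.9, 1.70, 5.43 and 8.44 in the same order.

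The rings in Fam53b shared ends. The circRNAs novel_circ_000286 (chr7:132759389-132779385), novel_circ_000448 (779 bases) and novel_circ_000428 shared the end at 132759389, and novel_circ_000286 and novel_circ_000848 (chr7:132771578-132779385) that at 132779385. Among 78 pairs of members with the same host label, 14 overlapped and these 4 pairs shared an end. In novel_circ_000286 the reads were 8 in pro-B, 8 in pre-B, 0 in immature B and 0 in mature B. The counts of novel_circ_000448 were 1, 4, 4 and 0 in the same order, and those of novel_circ_000848 were 2, 2, 6 and 2. The longest of these 3 rings was thus found in the pro-B and pre-B libraries, while the shorter ones also had reads in immature B cells and novel_circ_000848 in all 4 libraries, where a count of 0 leaves room for 3 reads. In Chst15, novel_circ_000489 (chr7:132262683-132271001) had 0, 2, 6 and 1 reads.

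**Figure D3:**
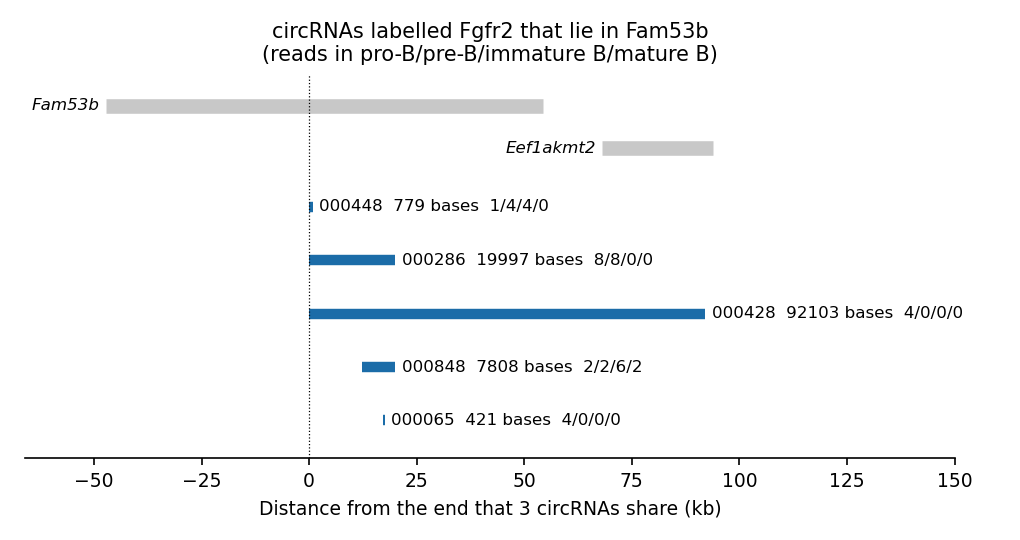
Map of the 5 circRNAs labelled Fgfr2 that lie in or across Fam53b, by distance in kb from the end that 3 of them share (dotted line), with the RefSeq intervals of Fam53b and Eef1akmt2 in grey. Blue bars are the rings drawn to scale, each with its number, its length and its reads by stage from pro-B to mature B, and novel_circ_000428 reaches past Fam53b into Eef1akmt2.

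All 11 members outside their labelled host lay in or across another RefSeq gene, as did 10 of the 11 whose host has no RefSeq record. Examples are the ring labelled Gm45837 in Pde2a, a cyclic nucleotide phosphodiesterase (8 pro-B reads), and that labelled Gm12158 in Ebf1 (4 immature B reads). The Ighm ring lay partly outside its host and reached 146 bases beyond the 5' end of the RefSeq interval.

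The members found in several libraries numbered 21, or 17 of 285 without the label Fgfr2. The circRNA with the most reads was novel_circ_000177 of Zranb1, a deubiquitinase (chr7:132948044-132950435, exon-intron, 1017 bases), with 2 reads in pro-B, 6 in pre-B, 4 in immature B and 7 in mature B cells. It was 1 of the 2 members with reads in every library, beside novel_circ_000848. The Elk4 ring novel_circ_000882, from a gene for an ETS transcription factor (exon-intron, 8504 bases), had 6, 0, 9 and 2 reads in the same order.

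Hosts with roles in B cells were among those found again. Ighm, the heavy chain of IgM, gave the exon-intron ring novel_circ_000579 (chr12:113422488-113422876, minus strand, 389 bases) with 0 reads in pro-B, 2 in pre-B, 10 in immature B and 4 in mature B cells. Its highest count was in the first library sorted as IgM+, while the Ighm mRNA stood at 3775, 7147, 7816 and 3902 CPM. The FPKM values of the Ighm mRNA were 374, 184, 203 and 381 from pro-B to mature B. Which library held the highest Ighm mRNA level thus depended on the scale. Ebf1, a transcription factor that commits cells to the B lineage, gave 5 intronic rings. The ring novel_circ_000031 (217 bases) had 0, 4, 8 and 0 reads and novel_circ_000837 (445 bases) had 0, 7, 4 and 0. The other 3 Ebf1 rings had 4 reads each in 1 library, so all but 4 of the 35 Ebf1 reads were in pre-B and immature B cells. Foxp1, another transcription factor of B-cell development, gave 4 rings with 9 pre-B and 11 immature B reads and none elsewhere, and 1 of them, novel_circ_001000, was found in both.

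Signalling genes gave further recurrent rings. Map3k1, a kinase of the MAP kinase cascade, gave novel_circ_000819 (intronic, 2448 bases) with 0, 10, 0 and 6 reads. Pag1, an adaptor that binds the kinase Csk, gave novel_circ_000269 (exon-intron, 3031 bases) with 4, 10, 0 and 0. The first was thus found at stages that do not follow each other and the second in the earlier libraries. Pik3ap1, an adaptor that recruits PI3-kinase, gave novel_circ_000107 with 2 pro-B and 3 immature B reads. Cyth1, an exchange factor of ARF GTPases, gave novel_circ_000170 with 3 pro-B and 4 pre-B reads. Cyfip2, of the WAVE complex, gave novel_circ_000661 with 4, 2, 2 and 0. These last counts are at or near what a count of 0 allows.

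**Figure D4:**
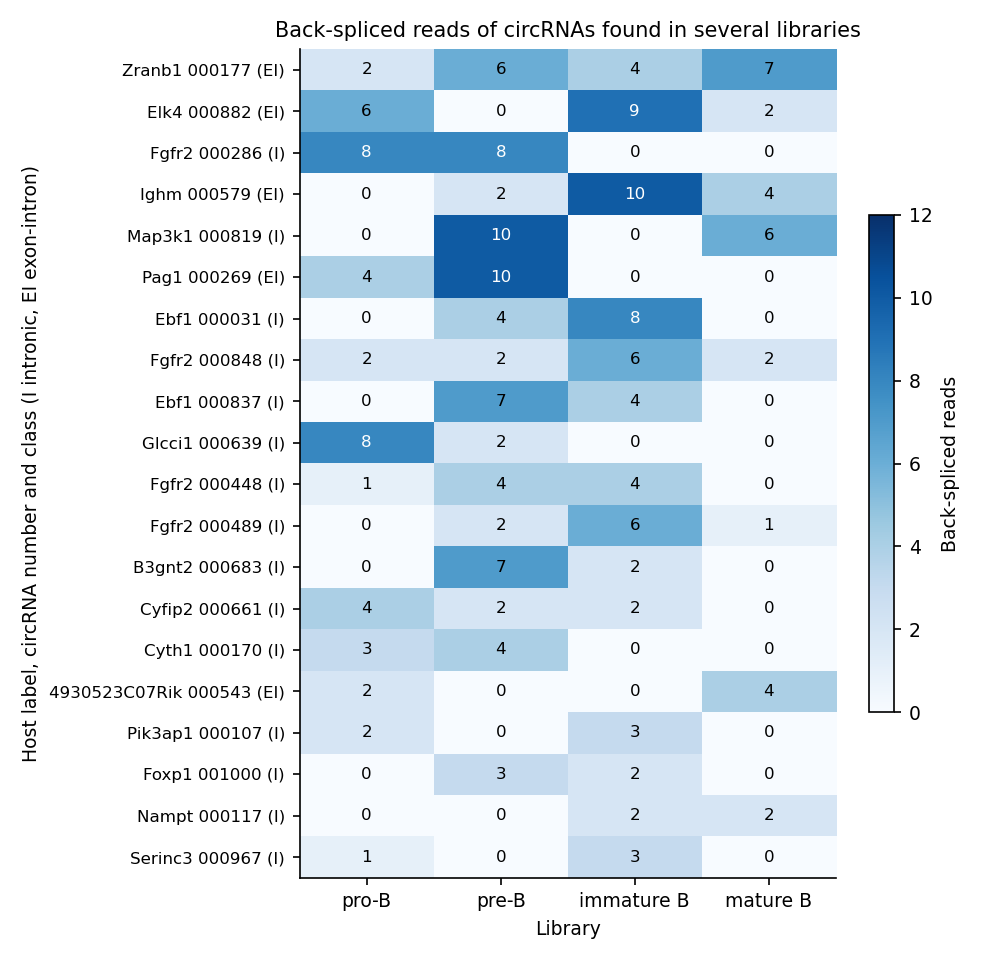
Back-spliced reads (colour and number) of 20 of the 21 intronic (I) and exon-intron (EI) circRNAs found in 2 or more libraries, by library (columns) and circRNA (rows, with the deposited host label), from the most reads to the fewest. The Zranb1 ring and novel_circ_000848 have reads in all 4 libraries.

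Adjacent libraries were compared by edgeR's exact test over all 1005 circRNAs, and a member was called where P was under 0.05 and RPM, the reads scaled to the library's back-spliced total, differed by a log2 fold of 1 or more. From pro-B to pre-B, 28 members were called, 9.56% of members against 9.85% of all circRNAs. In pre-B 10 were higher, against 3.48% of all circRNAs, and 18 lower, against 6.37%. From pre-B to immature B, 36 were called, 12.3% against 14.5%, of which 16 were higher (7.06% of all) and 20 lower (7.46% of all) in immature B. From immature B to mature B, 34 were called, 11.6% against 13.2%, of which 19 were higher (6.27% of all) and 15 lower (6.97% of all) in mature B. These shares lie near the background of the whole table. With all circRNAs tested, no member passed a Benjamini-Hochberg adjusted p of 0.05 in edgeR's exact test, and the calls are all of the members at an unadjusted P under 0.05. With a minimum of 4 reads over both libraries 0, 4 and 0 members passed, and with a minimum of 10 reads 4, 4 and 2. With counts halved, so that a read pair counts as 1, the calls were 0, 1 and 1, and at a dispersion of 0.16 they were 25, 17 and 14. With TMM library sizes the pre-B calls against pro-B became 20 higher and 18 lower.

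Members with the smallest P had 8 or more reads in the higher library and none in the lower. Folds given as at least, here and below, set the count of 0 to 3 reads and take the higher count as exact. They leave out the counting error of the higher count and the excess of even counts, so they are not confidence bounds. With counts halved, 16 of the 18 calls with the smallest P were no longer at P under 0.05. Pre-B counts were lower than pro-B counts for the rings of Atp1b3, a subunit of the sodium pump, and Dock2, an activator of Rac in leukocytes. Each had 10 pro-B reads and none in the other libraries (at least 4.18-fold lower against 3 reads, edgeR exact P = 9.79e-04, adjusted p = 0.123). Higher in pre-B cells were the ring of Macroh2a1, a histone variant, with 10 reads in pre-B only, and the Map3k1 ring (each at least 2.66-fold, edgeR exact P = 0.00391, adjusted p = 0.131). The Foxo1 ring novel_circ_000160, from a transcription factor needed for Rag expression, had 8 pre-B reads (at least 2.13-fold, edgeR exact P = 0.0156, adjusted p = 0.173).

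Higher in immature B than in pre-B cells was novel_circ_000496 of Sf3b3, a subunit of the splicing factor SF3B, with 12 immature B reads and none elsewhere (at least 3.93-fold, edgeR exact P = 4.90e-04, adjusted p = 0.0757). It was also lower in mature B cells (at least 3.50-fold, edgeR exact P = 9.79e-04, adjusted p = 0.123). Blnk, the adaptor between Syk and Plcg2, gave 2 overlapping intronic rings, novel_circ_000013 and novel_circ_000213, with 8 immature B reads each and none elsewhere (novel_circ_000013 at least 2.62-fold above pre-B, edgeR exact P = 0.00782, adjusted p = 0.125). The Pag1 ring was lower in immature B cells (at least 3.40-fold, edgeR exact P = 0.00196, adjusted p = 0.0757). In mature B cells, rings of Vta1, of the endosomal sorting machinery, and of the lncRNA Lncpint had 8 mature B reads each and none elsewhere (at least 3.05-fold, edgeR exact P = 0.00782, adjusted p = 0.146).

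The 293 members came from 251 hosts, of which 25 gave several and accounted for 67 members. Beside the members, 29 hosts (11.6%) also gave a circRNA of exons and 34 (13.5%) an antisense one, and 200 gave no other class. The mRNA table held the hosts of 278 members, and 14 of the other 15 had a host in the lncRNA table.

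Host mRNA levels were set beside the presence of the ring's reads in a library, with no test. Of the 308 combinations of a member and a library in which it had reads, the host reached an FPKM of 1 in 237 (76.9%), and in 81.2% of the 292 without the label Fgfr2. Of the 804 combinations without reads the share was 74.8%. These combinations repeat hosts and are not independent, and with each host and library counted once the share with reads was 79.0% of 276. By library, the share with reads was 90.3% in pro-B, 54.2% in pre-B, 71.1% in immature B and 91.4% in mature B, against 93.7%, 56.3%, 60.0% and 88.8% without reads. Hosts of members with reads had a median FPKM of 8.22 in pro-B, 1.44 in pre-B, 1.87 in immature B and 10.5 in mature B cells, against 7.68, 1.31, 1.40 and 9.59 for hosts without reads there. The median host stood at percentile 91.0, 86.5, 89.1 and 93.9 of all mRNAs with reads, and at 90.3, 85.2, 85.8 and 93.1 without. Spearman's rho between a member's reads and its host's FPKM lay between -0.26 and 0.10 across 72 to 83 members of a library, which share that library's depth.

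**Figure D5:**
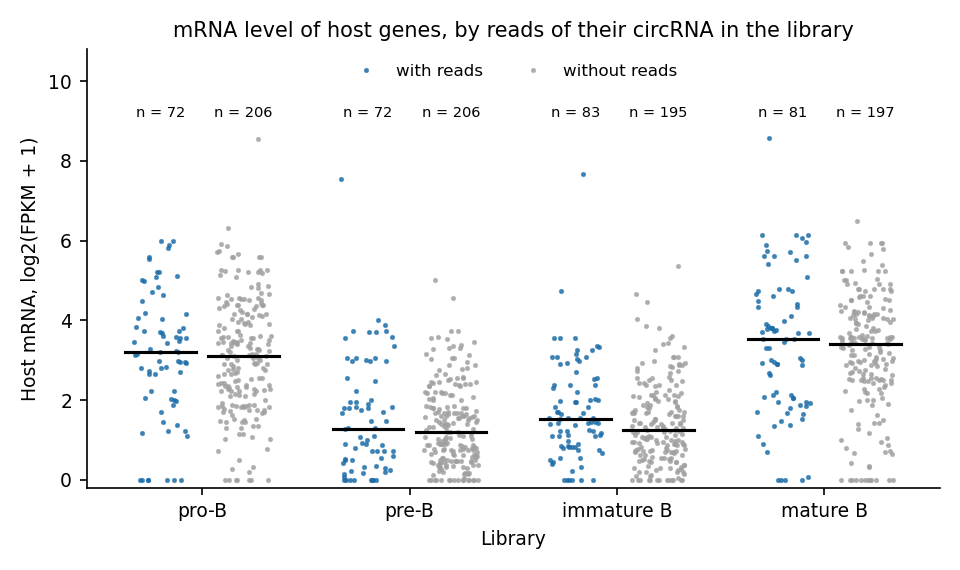
Level of the host mRNA, as log2(FPKM + 1), in each library for members with reads (blue) and without reads (grey) in that library. Points are members, black bars are medians and n is the number of members, and within a library the medians of both groups lie close together while pro-B and mature B cells lie above pre-B and immature B cells.

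Hosts were not higher throughout in the library that held the reads of their ring. For the 257 members with reads in 1 library and a host in the mRNA table, the median difference in host log2(FPKM + 1) between that library and the mean of the others was 0.00. It was 1.25 for rings of pro-B cells (n = 60), -1.32 for pre-B (n = 56), -1.03 for immature B (n = 69) and 1.26 for mature B cells (n = 72). Over 9798 mRNAs that reached an FPKM of 1 the same differences were 0.91, -0.77, -0.77 and 0.71, so their signs follow the libraries. On the percentile scale, which ranks the mRNAs within a library, the median difference was 0.797 points, with 153 members above 0 and 104 below. Host percentiles also shifted between libraries, so this scale does not remove the part of the library. For members without reads there, the medians were 90.3 in pro-B, 85.2 in pre-B, 85.8 in immature B and 93.1 in mature B. Atp1b3 was highest where its ring was found, with FPKM values of 30.5 in pro-B, 2.18 in pre-B, 1.62 in immature B and 9.75 in mature B cells. Blnk was lowest there, with 35.8, 3.40, 1.68 and 14.2, and also on the CPM scale, with 457, 171, 67.1 and 179. Sf3b3 had 7.05, 0.77, 0.80 and 6.82, low in the library that held its 12 reads.

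In 25 combinations the host was listed at an FPKM of 0 where the ring had reads, and 16 of these carried the label Fgfr2. The other 9 included the host Suclg2, a subunit of succinyl-CoA ligase, whose ring novel_circ_000073 had 6 pre-B reads. Suclg2 was listed at FPKM values of 1.75, 0, 0.23 and 5.16. Trp53inp2, a regulator of autophagy, gave a ring with 6 pre-B reads and had values of 4.06, 0, 0.95 and 11. The highest levels belonged to Ighm (381 FPKM in mature B cells), Bach2 (89.7), Stk17b (69.7) and Bank1 (66.1). Bank1, a scaffold of BCR signalling, gave 1 ring with 5 mature B reads, where its mRNA was highest. All 3 rings of Stk17b, a kinase of apoptosis, had their 12 reads in mature B cells, where its mRNA was highest too.

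Host mRNAs were compared between the same pairs of libraries, at a dispersion of 0.0001. Hosts stood at higher levels than most mRNAs, at median percentiles of 85.2 to 93.9, and whether their share of calls differed from that of all mRNAs was not tested. By edgeR's exact test with a log2 fold of FPKM of at least 1, 126 of 232 hosts were called from pro-B to pre-B, against 28.1% of all mRNAs tested. Of these 3 were higher (4.34% of all) and 123 lower (23.8% of all). From pre-B to immature B 45 of 229 were called, against 18.2%, with 28 higher (8.6% of all) and 17 lower (9.61% of all). From immature B to mature B 123 of 232 were called, against 25.2%, with 120 higher (19.8% of all) and 3 lower (5.41% of all). With the fold taken on CPM, the first step gave 109 calls (31.5% of all mRNAs), 17 higher (12.5%) and 92 lower (19%). The second step then gave 50 (19% of all), 28 higher (8.98%) and 22 lower (10%), and the third 95 (30% of all), 80 higher (15.3%) and 15 lower (14.7%). With a dispersion of 0.16, which 1 library per stage cannot check, the hosts called fell to 26 (11.2%, against 12.4% of all), 13 (5.68% against 6.34%) and 34 (14.7% against 10.7%). Over mRNAs that reached an FPKM of 1 in both libraries, the median log2 ratio was -1.56, 0.02 and 1.42 on FPKM and 0.15, -0.02 and -0.23 on CPM. For the hosts among them it was -2.16, -0.03 and 2.23 on FPKM and -0.41, -0.06 and 0.52 on CPM.

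Of 77 genes of BCR signalling and the B lineage, 20 (26.0%) were hosts of members, against 225 (2.30%) of the 9798 mRNAs that reached an FPKM of 1. The list holds genes that the study had picked as parents of circRNAs in these libraries, so it is not independent evidence. The 32 rings had 178 reads, and 26 of them were found in 1 library. Reads were present for 4 rings in pro-B, 14 in pre-B, 12 in immature B and 9 in mature B cells. By role, the kinases and adaptors next to the receptor were Syk (4 pre-B reads), Fyn (3 mature B), Blnk and Bank1. Further downstream lay Plcg2 (4 immature B), 3 rings of Prkcb with 4 pro-B, 6 pre-B and 2 mature B reads, and Ppp3ca, Rac2 and Akt2 with 4 reads each in 1 library. The transcription factors were Ebf1, Foxp1, Foxo1, Bach2, Ikzf1 and Nfatc1. The Ptprc ring was exon-intron, with 4 mature B reads and 5277 bases out of a span of 53848.

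Genes that make, open or degrade circRNAs and lariats were read from the mRNA table, which held 31 of 34 listed symbols. Dbr1, which opens lariats, had 31.1 CPM in pro-B, 8.33 in pre-B, 31.3 in immature B and 44.7 in mature B cells. These were only 27, 2, 7 and 38 estimated counts, so a change could be missed. None of its adjacent differences was called (edgeR exact P = 0.0785, 0.1798 and 0.4999). On CPM, 0 of 29 genes tested were higher and 8 lower at the pre-B stage against pro-B, against 12.5% and 19% of all mRNAs. In immature B cells 3 of 29 were higher and 2 lower, against 8.98% and 10%, and in mature B cells 8 of 30 were higher and 2 lower, against 15.3% and 14.7%. On FPKM the counts were 0 and 14 (4.34% and 23.8% of all), 3 and 2 (8.6% and 9.61%), and 12 and 1 (19.8% and 5.41%). Xrn2, a nuclear exonuclease, fell from 211 to 24.98 CPM from pro-B to pre-B cells (edgeR adjusted p = 1.81e-10) and rose from 85.0 in immature B to 264 in mature B cells (adjusted p = 2.69e-06). Its estimated counts were 183, 6, 19 and 224 from pro-B to mature B. Prpf8, at the heart of the spliceosome, fell from 406 to 85.0 CPM (edgeR adjusted p = 3.72e-15) and rose to 497 in immature B cells (adjusted p = 5.17e-15). Sf3b1, Mbnl1, Hnrnpm and Snrnp70 of this list were themselves hosts, with 6 pro-B, 4 mature B, 2 pro-B and 4 immature B reads.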

How the data were processed

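The authors cleaned reads with fastp 0.18.0, removed rRNA with Bowtie2 2.2.8, mapped the rest with HISAT2 and called circRNAs with find_circ, which needs 2 unique back-spliced reads. The deposited circRNA counts are back-spliced reads, and the deposited RPM divides them by the library's total of such reads. The authors' estimated counts of mRNAs and lncRNAs come from StringTie 1.3.4, and their deposited FPKM is scaled by transcript length. The miRNA table was not used.

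Members are the rows classed intronic or exon_intron; members and gene lists were chosen with earlier results of these data known. Named are the 10 members with most reads per class, those in several libraries, those with the 3 smallest P per comparison and direction, those of hosts with several members or on a list, the 3 longest and shortest per class, and those with the 5 highest hosts or the most reads at a host listed at 0. The exact test of edgeR 4.0.16 in R 4.3.3 used column totals, a dispersion of 0.0001, estimated counts rounded, 0 replaced by 0.001 in folds, and Benjamini-Hochberg adjustment over each table. Folds given as at least use 3 counts for a count of 0 and no counting error of the higher count. Positions were compared with RefSeq on GRCm38.p6. On tables simulated for pre-B minus pro-B, 17% of 4-fold changes and 1.68% of unchanged features were called at a dispersion of 0 for circRNAs (558 features), and 20% and 5.59% at 0.16. For mRNAs (13609 features) these were 63% and 1.28%, and 51% and 14.5%. The simulated circRNA counts had no excess of even numbers, while 84.5% of the real nonzero counts were even. The circRNA rates therefore do not cover calls that counting both mates would add. Python 3.11.15 with pandas 2.3.3 and scipy 1.17.1 made the other tables. A few items that the naming rule gives are not reported here.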

Additional observations from a re-analysis of the deposited data

How the results depend on the processing

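No paired analysis was possible because each stage has 1 library. With a dispersion of 0.16, a value that 1 library per stage cannot check, the called members numbered 25 from pro-B to pre-B, 17 from pre-B to immature B and 14 from immature B to mature B, and the called hosts 26, 13 and 34. With counts halved and rounded up, so that a read pair counts as 1, they were 0, 1 and 1, and 16 of the 18 single members tested again were no longer at P under 0.05. With at least 10 reads over both libraries 4, 5 and 2 members were called out of 7, 8 and 5 tested, since fewer circRNAs were tested. Among members with at least 6 reads, 65 of 82 had reads in 1 library. The share of hosts at the threshold was 91.2% at an FPKM of 0.1 and 45.5% at an FPKM of 5. TMM library sizes, a minimum of 4 reads (10 counts for mRNAs) or of 2 reads in a library, genomic span, a pseudocount of 0.1, a filter on host level and counting each circRNA or host once kept the total counts of calls within 1.5 times and the other values within their interval or 1 SD. By direction TMM moved the pre-B calls from 10 to 20 higher, with 18 lower in both, and a minimum of 4 reads moved the members at an adjusted p of 0.05 from 0 to 4 in immature B against pre-B. The fold on CPM and leaving out the members labelled Fgfr2 (268 of 285 in 1 library; 81.2% of hosts at an FPKM of 1) were chosen after seeing the data. Reads of 2 to 19 per circRNA and the lack of replicates limit every comparison.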
